A study of Mus musculus with 6 samples.

Results

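The genes described here mark epithelial or mesenchymal identity, and they were chosen by symbol: the keratins Krt7, Krt8, Krt18, Krt19 and Krt20, the epithelial adhesion molecule gene Epcam, the intermediate filament gene Vim, and the transcription factor genes Zeb1, Snai1 and Twist1. All 10 were found among the 24346 gene symbols of each deposited table. RNA sequencing had been performed on parental CT26.mMR1 cells and on M8 cells, with 3 RNA samples of each, which the study describes as biological replicates. CT26 is a colon tumor line from a BALB/c mouse, and both groups carried a retrovirally introduced mouse MR1 gene (labelled MR1-overexpressing). The sample titles of both groups also carry the tag cl9, whose meaning is not given in the sources used here. M8 (labelled as an MR1-overexpressing mutant) was a single clone obtained by limiting dilution after treatment of the parental cells with the mutagen ENU, and it was picked in a screen for stronger activation of a MAIT reporter line and higher surface MR1. Clonal differences and effects of the mutagen cannot be told apart in such a design, and the p-values below measure only the spread between the RNA samples of each line. Levels are given as FPKM, which scales the fragments of a gene by its exon length and by the mapped fragments of the library, so that genes can be set side by side.

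Epithelial cells of the gut are held together by E-cadherin junctions and desmosomes, and their cytoskeleton is built from simple keratins, which assemble as obligate pairs of a type II chain (Krt7, Krt8) with a type I chain (Krt18, Krt19, Krt20). Mesenchymal cells instead build their filaments from vimentin, the product of Vim. In the epithelial-mesenchymal transition (EMT), transcription factors of the Zeb, Snail and Twist families repress epithelial genes and accompany a switch to mesenchymal ones, and carcinoma cells can hold this state to different degrees.

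In the mouse genome GRCm38 (mm10), RefSeq places Vim on chromosome 2 from 13574311 to 13582826 and Snai1 on the same chromosome from 167538195 to 167542814. Twist1 lies on chromosome 12 from 33957671 to 33959831, and Zeb1 on chromosome 18 from 5591327 to 5775468, where a long noncoding RNA gene, Gm10125, overlaps it. No other gene overlaps the remaining 9 loci in that annotation. Krt7 (101412403 to 101427806), Krt8 (101996711 to 102004342) and Krt18 (102028216 to 102032026) are on chromosome 15, the type II keratin cluster, and 23.9 kb separate Krt8 from Krt18. Krt20 (99428385 to 99438153) and Krt19 (100140810 to 100145926) lie on chromosome 11, and Epcam lies on chromosome 17 from 87635979 to 87651127. A pseudogene copy, Krt8-ps, is named after Krt8, and reads of such a copy could be counted with its parent gene.

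The depth of the libraries was read from the steps in which the FPKM of weakly expressed genes rise, since each step is 1 read. By this estimate the parental replicates 1 to 3 held about 25100000, 23900000 and 27000000 mapped reads, and the M8 replicates about 22000000, 19400000 and 21200000. The M8 libraries were thus shallower in all 3 samples. In these steps, between 75.6% and 81.3% of the 162 to 188 genes used per library lay within 0.1 of a whole number of reads. The step of each library was chosen to bring these same genes closest to whole numbers, so this share is no independent check of the depth.

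Parental CT26.mMR1 cells and M8 both expressed the mesenchymal side of the list. Vim stood at 1751, 2137 and 1876 FPKM in parental replicates 1 to 3 and at 2030.3, 2049 and 1965 FPKM in M8. It ranked between 45 and 59 among the 24346 genes and made up between 0.295% and 0.348% of the summed FPKM of a sample. The ranges of the groups overlapped, and the parental values spread more widely than the M8 values.

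All 3 transcription factors of the list were expressed in every sample. Twist1, a basic helix-loop-helix factor, had 30.3, 32.9 and 37.5 FPKM in parental cells and 34.7, 34.4 and 34.4 FPKM in M8. The M8 values lay within the parental range. Snai1, a zinc finger repressor of E-cadherin, had 13.0, 13.8 and 13.8 FPKM in parental cells and 14.3, 12.0 and 11.2 FPKM in M8, so that M8 held both the highest and the lowest values. Zeb1, a zinc finger and homeodomain repressor, had 11.5, 10.7 and 11.8 FPKM in parental cells and 9.70, 10.2 and 10.9 FPKM in M8. Only the highest M8 value reached into the parental range.

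**Figure D1:**
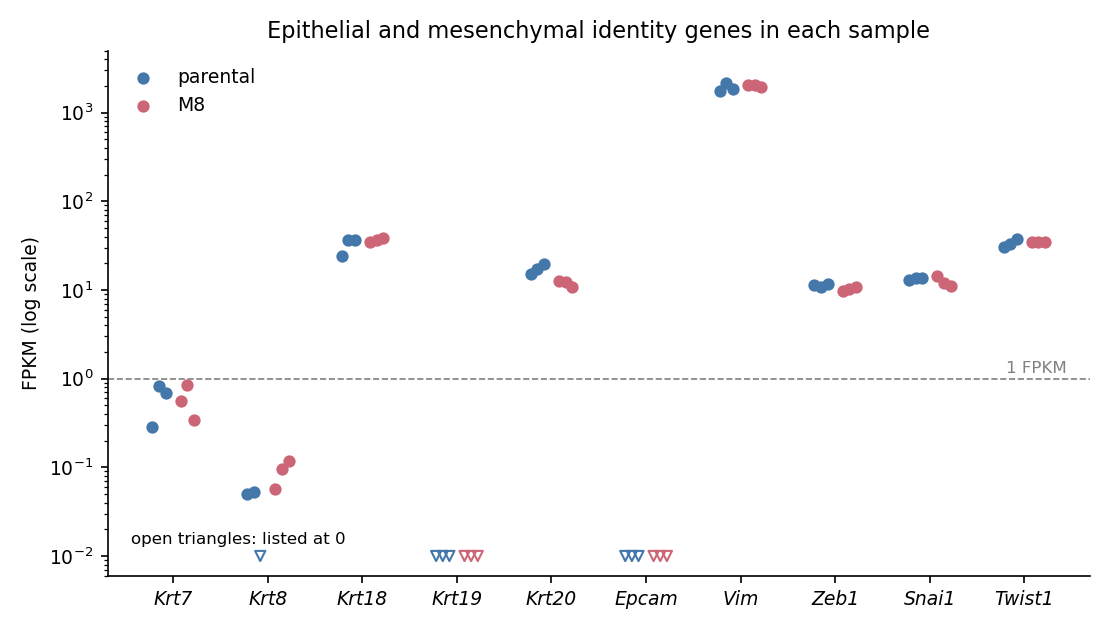
FPKM (log scale) of the 10 genes in the 3 parental (blue) and 3 M8 (red) samples, with open triangles for values listed at 0. Vim lies between 1751 and 2137 FPKM, Krt18, Krt20, Zeb1, Snai1 and Twist1 lie between 9.70 and 38.4 FPKM, and Krt7, Krt8, Krt19 and Epcam stay below the dashed line at 1 FPKM in all 6 samples.

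The epithelial side of the list was split. Epcam and Krt19 were listed at 0 in all 6 samples. At the estimated depths, 3 reads would be worth at most 0.0840 FPKM for Epcam and 0.112 FPKM for Krt19, so higher levels were not seen in any library. No cytosolic ribosomal protein gene among 72 checked was listed at 0 in any sample. Krt8, the type II partner of Krt18, had 0.0495, 0.0522 and 0 FPKM in parental cells and 0.0566, 0.0963 and 0.117 FPKM in M8. These values correspond to an estimated 2, 2 and 0 reads in parental cells and 2, 3 and 4 reads in M8. With 2 reads each in parental replicates 1 and 2 and in M8 replicate 1, the lines were not separated in reads, and no fold change or test is given. Krt7, a type II keratin of ductal epithelia, had 0.287, 0.817 and 0.696 FPKM in parental cells and 0.557, 0.855 and 0.339 FPKM in M8, with fully overlapping groups. These 4 genes had a mean below 1 FPKM and were not tested for a difference in the fit described below.

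Krt18 and Krt20, both type I keratins, were expressed. Krt18 had 24.5, 36.6 and 36.5 FPKM in parental cells and 34.7, 36.2 and 38.4 FPKM in M8. Parental replicate 1 stood apart from the 5 other samples. Krt20, a keratin of differentiated gut epithelium, had 15.1, 17.2 and 19.8 FPKM in parental cells and 12.7, 12.3 and 10.8 FPKM in M8. All 3 M8 values were below all 3 parental values. Krt18 therefore stood without Krt8: the lowest Krt18 value was 24.5 FPKM, while the highest Krt8 value was 0.117 FPKM.

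By mean level over the 6 samples the order was Vim (1968 FPKM), Krt18 (34.5 FPKM), Twist1 (34.0 FPKM), Krt20 (14.7 FPKM), Snai1 (13.0 FPKM), Zeb1 (10.8 FPKM), Krt7 (0.592 FPKM) and Krt8 (0.0620 FPKM), with Krt19 and Epcam at 0. Vim stood above Krt18 by more than the spread of either. Krt18 and Twist1 could not be ordered, since their ranges overlapped in both lines. Krt20, Snai1 and Zeb1 followed each other without overlap in parental cells, but in M8 the range of Krt20 overlapped those of both others and Snai1 had a higher mean than Krt20. The summed FPKM of the 5 keratins of the list was 50.5 ± 9.26 for parental and 49.0 ± 0.910 for M8 samples (SD, n = 3 each). Keratins outside the list did not enter this sum. Vim exceeded this sum 38.6 ± 5.49-fold in the parental line and 41.1 ± 1.40-fold in M8 (SD, n = 3 each). These are ratios within a sample, which a single scaling factor per sample does not change, and the groups overlapped.

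Promoter sequences are shown for Epcam, which was listed at 0, for the neighbours Krt8 and Krt18, of which only the latter was expressed, and for Krt20, the keratin that fell in M8. They are the 250 bases before the RefSeq start in GRCm38.p6, 5′ to 3′ on the strand of the gene: Epcam at chr17:87635729-87635978 (plus strand), Krt8 at chr15:102004343-102004592 (minus strand), Krt18 at chr15:102027966-102028215 (plus strand) and Krt20 at chr11:99438154-99438403 (minus strand). Capitals mark the E-box CAGGTG, read on either strand (CACCTG is the same motif on the other strand), the element that Zeb and Snail factors are known to bind.
Epcam: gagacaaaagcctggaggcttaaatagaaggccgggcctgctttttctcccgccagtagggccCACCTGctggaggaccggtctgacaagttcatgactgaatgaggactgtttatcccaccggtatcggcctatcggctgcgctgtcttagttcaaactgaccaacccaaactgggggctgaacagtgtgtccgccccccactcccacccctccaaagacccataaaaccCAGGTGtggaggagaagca
Krt8: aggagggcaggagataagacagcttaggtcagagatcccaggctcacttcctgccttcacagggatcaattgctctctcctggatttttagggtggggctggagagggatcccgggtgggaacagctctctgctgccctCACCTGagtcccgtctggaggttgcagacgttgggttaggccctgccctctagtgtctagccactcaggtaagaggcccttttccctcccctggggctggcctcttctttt
Krt18: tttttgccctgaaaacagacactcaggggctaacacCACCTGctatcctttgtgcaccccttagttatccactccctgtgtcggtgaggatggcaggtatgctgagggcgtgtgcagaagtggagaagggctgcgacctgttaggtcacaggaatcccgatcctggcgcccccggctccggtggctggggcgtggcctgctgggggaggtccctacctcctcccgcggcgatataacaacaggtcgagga
Krt20: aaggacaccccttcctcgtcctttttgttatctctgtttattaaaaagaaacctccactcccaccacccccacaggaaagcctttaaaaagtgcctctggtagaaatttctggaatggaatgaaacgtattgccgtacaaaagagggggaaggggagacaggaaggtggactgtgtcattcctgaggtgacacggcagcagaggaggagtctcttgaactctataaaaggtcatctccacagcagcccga
Epcam held the motif at 2 places, from base -187 to base -182 and from base -19 to base -14 counted from the start. Krt8 held it from base -111 to base -106 and Krt18 from base -214 to base -209, and in the 250 bases of Krt20 it was absent. Promoters of 8 of the 10 genes were in the table, and 5 of these 8 held the motif, Krt7 and Snai1 being the others, while Vim and Twist1 held none. Over all 27025 promoters of the table, 17.1% held it at least once and 2.06% at 2 or more places. The motif was thus found in a promoter without transcripts (Epcam), in one with a few reads (Krt8) and in one that was active (Krt18), and a match is a description of the sequence, not a bound site.

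Other genes of both programs were read in the same way. Of 11 other EMT transcription factor genes, 7 had a mean of at least 1 FPKM, and of 24 mesenchymal and fibroblast genes 12 did. In comparison, this level was reached by 43.5% of all genes in the tables, so the share of the mesenchymal list was near that of all genes. Twist2, the paralog of Twist1, had 94.4 ± 10.7 FPKM (SD, n = 3) in parental cells and exceeded Twist1, and Snai2, the paralog of Snai1, had 43.3 ± 1.61 FPKM (SD, n = 3) and exceeded Snai1. Prrx1, a homeobox factor of mesenchyme, had 41.5 ± 2.26 FPKM (SD, n = 3). Among the mesenchymal genes the highest parental levels were those of S100a4 (1434 ± 62.3 FPKM, SD, n = 3), a calcium-binding protein also called fibroblast-specific protein, of Fn1 (622 ± 22.5 FPKM, SD, n = 3), which encodes fibronectin, and of Col1a2 (487 ± 15.1 FPKM, SD, n = 3), a chain of type I collagen. N-cadherin (Cdh2) stood at 21.4 to 24.4 FPKM over the 6 samples, whereas E-cadherin (Cdh1) was listed at 0 in all of them. The fibroblast genes Thy1 and Postn were also listed at 0 in all samples, so that the mesenchymal list was not expressed throughout.

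Of 22 epithelial junction and surface genes, 2 reached a mean of 1 FPKM. The higher was Tjp1 (41.4 ± 1.20 FPKM in parental cells, SD, n = 3), which encodes a junction scaffold protein that is not limited to epithelial cells. The highest of those below that level, the mucin gene Muc1, had 0.661 ± 0.143 FPKM (SD, n = 3). Of 13 epithelial splicing and transcription factor genes only Klf5 reached that level, with 30.3 ± 4.29 FPKM (SD, n = 3) for the parental line, followed by Grhl1 with 0.474 ± 0.0576 FPKM (SD, n = 3) and Ovol1 with 0.0971 ± 0.0113 FPKM (SD, n = 3). Of 12 genes of differentiated colon epithelium only the galectin gene Lgals4 did, with 2.15, 1.59 and 1.29 FPKM in parental cells and 0.660, 0.585 and 0.795 FPKM in M8. Aqp8 (0.335 FPKM on average in parental cells) and Fabp2 (0.117 FPKM) followed. The labels give colon as the tissue, and the gut transcription factor gene Cdx2 was listed at 0 in all 6 samples. Krt20 was thus expressed while 11 of these 12 genes stayed below a mean of 1 FPKM.

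**Figure D2:**
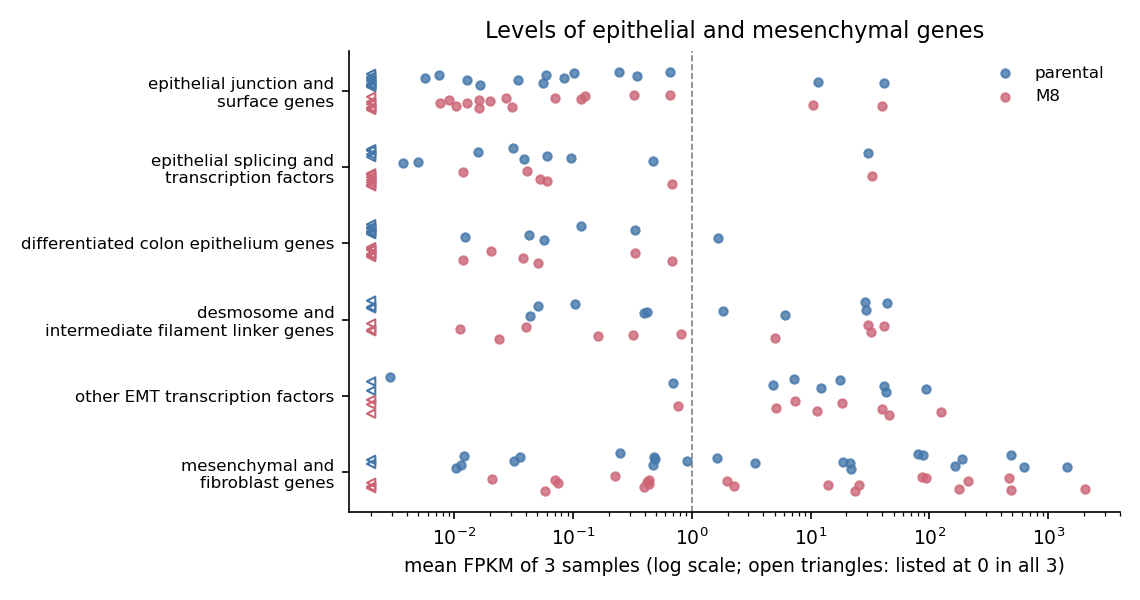
Mean FPKM of 3 samples (log scale) of each gene in 6 lists, for parental (blue) and M8 (red) cells, with open triangles for genes listed at 0 in all 3 samples and a dashed line at 1 FPKM. In the 3 epithelial lists at the top 4 of 47 genes have a mean of at least 1 FPKM over the 6 samples, against 19 of 35 genes in the EMT transcription factor and mesenchymal lists at the bottom.

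Markers of other cell types were read in the same way. The 8 leukocyte markers summed to between 4.19 and 5.94 FPKM in parental and between 1.45 and 2.77 FPKM in M8 samples, most of it from Cd68 (4.31 ± 0.563 FPKM in parental and 1.76 ± 0.605 FPKM in M8 samples, SD, n = 3 each), a lysosomal glycoprotein of macrophages and other cells. Cd3e and Csf1r were listed at 0 in all 6 samples, and Ptprc, the common leukocyte antigen, was above 0 in parental replicate 1 only (0.00797 FPKM). The 6 endothelial markers summed to at most 0.674 FPKM in any sample. Of the 6 muscle markers, Smtn alone reached 1 FPKM (27.7 ± 2.88 FPKM in parental cells, SD, n = 3), while Myog and Actc1 were listed at 0.

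The comparison of M8 with parental cells asks how the mutant clone differs from its line of origin. To this end limma was applied to log2(FPKM + 1) of the 10597 genes with a mean of at least 1 FPKM, with Benjamini-Hochberg adjustment over all of them and a threshold of 0.1, the false discovery rate used in the study. Fold changes on this scale understate the change of genes with low FPKM. Of the 10 identity genes, 6 passed the filter on low values. Among these 6, 1 was called lower and 0 were called higher in M8, and at an unadjusted limma p below 0.05 the counts were also 1 and 0. For comparison, 16.5% of all genes tested were called lower and 21.2% were called higher. This split depended on scaling, with 2209 genes lower and 1658 higher under TPM and 3236 lower and 1157 higher under upper-quartile scaling, against 1745 and 2250 here. The median log2 fold change was -0.034 over the 6 genes and 0.0069 over all genes tested.

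Krt20 was the gene that fell. It averaged 17.4 ± 2.36 FPKM in the parental line and 11.9 ± 0.979 FPKM in M8 (SD, n = 3 each), a ratio of 0.686. On the log2 scale the difference was -0.50 with a standard error of 0.092 and a 95% interval from -0.71 to -0.30, at an adjusted p of 0.00438 in limma. The call was kept in all 17 alternative settings, with log2 fold changes from -0.59 to -0.41 and limma adjusted p-values up to 0.0275. It was the only one of the 6 genes whose groups did not overlap, where 20.4% of all genes tested had all M8 values below and 24.8% all M8 values above the parental ones. Krt20 supplied 34.7 ± 3.20% of the summed FPKM of the 5 listed keratins in the parental line and 24.3 ± 2.36% in M8 (SD, n = 3 each). This sum leaves out the keratin gene Krt80, with means of 23.4 FPKM in parental and 31.8 FPKM in M8 samples, so the share among all keratins is lower. In these bulk samples, fewer cells with Krt20 transcripts and fewer transcripts per cell cannot be told apart.

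**Figure D3:**
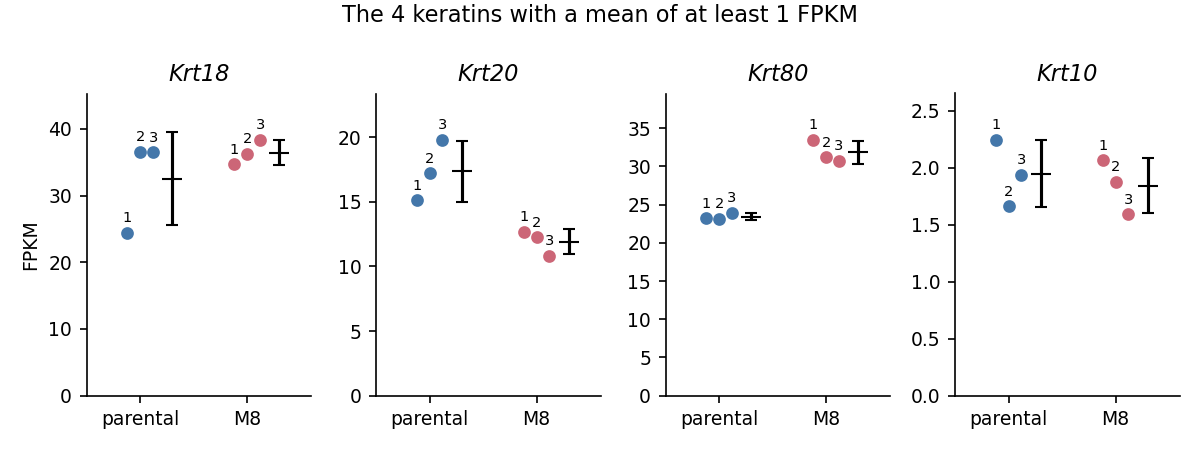
FPKM of Krt18, Krt20, Krt80 and Krt10 in parental (blue) and M8 (red) samples, with replicate numbers over the points and the mean ± SD of 3 samples in black. All 3 M8 values of Krt20 lie below and all 3 of Krt80 lie above the parental values, and parental replicate 1 of Krt18 (24.5 FPKM) lies below the 5 other samples.

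The other 5 genes did not pass the threshold. For Krt18 the log2 fold change was 0.18 (95% interval -0.11 to 0.47, limma adjusted p = 0.321), and without parental replicate 1 it was -0.0044 (limma adjusted p = 0.958). For Vim it was 0.073 (95% interval -0.078 to 0.22, limma adjusted p = 0.441). Without parental replicate 2 Vim was called higher (log2 fold change 0.15, limma adjusted p = 0.0639), and under upper-quartile scaling its sign turned (-0.014). For Twist1 the value was 0.044 (95% interval -0.11 to 0.20, limma adjusted p = 0.664), with a turned sign under upper-quartile scaling, under quantile normalization and without parental replicate 1. Zeb1 had a log2 fold change of -0.13 (95% interval -0.27 to 0.0057, limma adjusted p = 0.137), and it was called lower under TPM (limma adjusted p = 0.0923) and upper-quartile scaling (limma adjusted p = 0.0279). Snai1 had one of -0.11 (95% interval -0.29 to 0.069, limma adjusted p = 0.328), and it was called lower under upper-quartile scaling (limma adjusted p = 0.0999) and without M8 replicate 1 (limma adjusted p = 0.0627). In ratios of FPKM + 1, these intervals reach from 0.817 to 1.39, so that larger differences between the lines were outside them for each of the 5 genes.

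**Figure D4:**
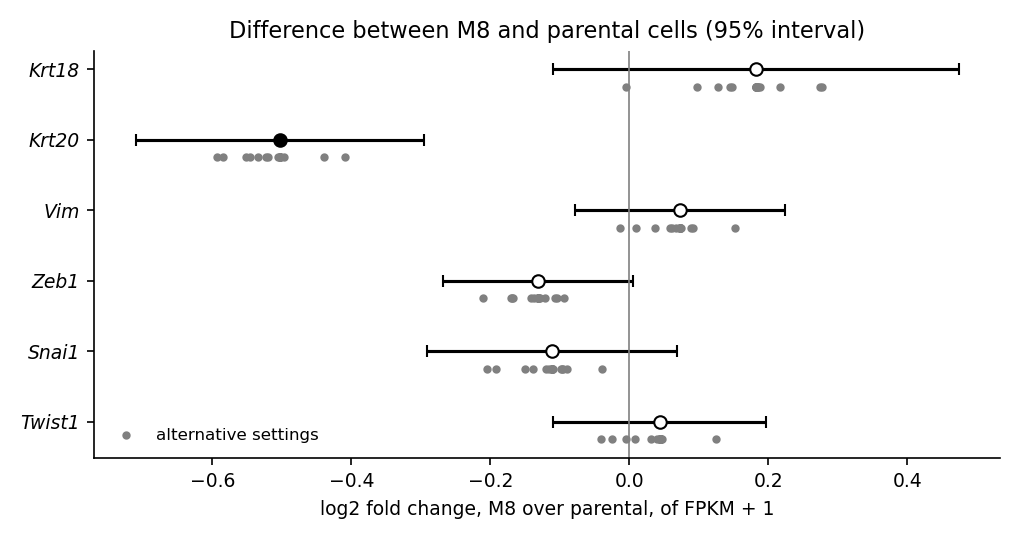
Log2 fold change of FPKM + 1, M8 over parental, for the 6 genes tested, with 95% intervals from limma, a filled circle for an adjusted p below 0.1 and open circles for the others. Grey points give the 17 alternative settings. Krt20 stays between -0.59 and -0.41, while points of Krt18, Vim and Twist1 fall on both sides of 0.

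Within the keratin family, 52 genes were in the tables, of which 28 were listed at 0 in all 6 samples and 4 had a mean of at least 1 FPKM. Beside Krt18 and Krt20 these were Krt80, a type II keratin, and Krt10, a type I keratin of the epidermis. Krt80 had 23.2, 23.1 and 23.9 FPKM in parental cells and 33.5, 31.2 and 30.8 FPKM in M8. It was higher in all 3 M8 samples (0.43 with a standard error of 0.047 on the log2 scale, adjusted p = 0.000552 in limma), in the opposite direction to Krt20. Krt10 averaged 1.95 ± 0.293 FPKM in the parental line and 1.84 ± 0.239 FPKM in M8 (SD, n = 3 each), and it was not called (limma adjusted p = 0.760). Of the 47 keratins outside the list of identity genes, the next by the mean over all 6 samples was Krt16 with 0.0508 FPKM. Krt80 was thus the one type II keratin of the family above 1 FPKM in these cells, beside 3 type I keratins.

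Of the 7 other EMT transcription factor genes tested, 1 was higher and 0 were lower in M8 in limma's test. All genes tested gave 21.2% higher and 16.5% lower. For this list the counts at an unadjusted limma p below 0.05 were the same. The gene called higher was Twist2, which rose from 94.4 ± 10.7 to 125 ± 7.16 FPKM (SD, n = 3 each). Its values were 82.2, 102 and 98.4 FPKM in parental cells and 131, 126 and 117 FPKM in M8. The difference was 0.41 with a standard error of 0.078 on the log2 scale (adjusted p = 0.00527 in limma). Snai2 had a log2 fold change of 0.087 (limma adjusted p = 0.163) and passed only without parental replicate 3 (limma adjusted p = 0.0894). Prrx1 was not called (-0.068, limma adjusted p = 0.338), but it was lower under upper-quartile scaling (limma adjusted p = 0.0546) and quantile normalization (limma adjusted p = 0.0745), where 2 and 1 genes of this list were lower.

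Of the 12 mesenchymal genes tested, 4 were higher, 3 were lower and 5 were not called in M8, against 21.2% higher and 16.5% lower among all genes tested. Their median log2 fold change was 0.12. S100a4 rose most among those called, to a mean of 2052 FPKM in M8, or by 0.52 with a standard error of 0.051 on the log2 scale (adjusted p = 0.000302 in limma). The receptor tyrosine kinase gene Pdgfra fell to 2.29 ± 0.301 FPKM from 3.44 ± 0.261 FPKM (SD, n = 3 each; log2 fold change -0.43, limma adjusted p = 0.00903). Dcn, which encodes the proteoglycan decorin, fell from 18.6 ± 2.13 to 14.1 ± 1.98 FPKM (SD, n = 3 each; log2 fold change -0.38, limma adjusted p = 0.0245). Fn1 fell as well, to 488 ± 17.3 FPKM (SD, n = 3), which is -0.35 on the log2 scale (adjusted p = 0.000917 in limma). Cdh2, Axl and Pdgfrb were the other genes called higher, with log2 fold changes of 0.13, 0.18 and 0.25. Cdh2 (limma adjusted p = 0.0550) did not pass in 8 of the 17 alternative settings, among them TPM, without parental replicate 2 and without any 1 of the M8 replicates, and Axl did not pass under quantile normalization. Col1a2 was not called (log2 fold change -0.062). It was called lower under TPM (limma adjusted p = 0.0842), upper-quartile scaling (limma adjusted p = 0.0183) and quantile normalization (limma adjusted p = 0.0135).

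Few epithelial genes could be tested. Klf5 and Tjp1 were not called, with log2 fold changes of 0.13 and -0.046, but Tjp1 was called lower under upper-quartile scaling and quantile normalization. Lgals4 was lower in M8 (-0.66 with a standard error of 0.14 on the log2 scale, adjusted p = 0.00728 in limma), with a mean below 1 FPKM in M8, so that it passed the filter through its parental values. Of the 13 desmosome and filament linker genes, 5 were tested, of which 2 were lower and 1 was higher. Among all genes tested, 16.5% were lower and 21.2% were higher. The plakophilin gene Pkp3 fell from 1.82 ± 0.328 to 0.811 ± 0.226 FPKM (SD, n = 3 each; log2 fold change -0.64, limma adjusted p = 0.00745), and it too passed the filter through its parental values. Jup, the plakoglobin gene, fell from 6.06 ± 0.490 to 5.01 ± 0.358 FPKM (SD, n = 3 each; log2 fold change -0.23, limma adjusted p = 0.0511), but it did not pass in 6 of the 17 alternative settings. Pkp4 rose by 0.14 on the log2 scale (limma adjusted p = 0.0297) and did not pass under TPM, quantile normalization or upper-quartile scaling. Plec, which encodes the linker protein plectin, was the highest of this list (44.2 ± 2.69 FPKM in the parental line, SD, n = 3), and Dst had 28.8 ± 4.27 FPKM (SD, n = 3), whereas the desmosomal cadherin genes Dsg2 and Dsc2 were listed at 0 in all samples. Cd68, the leukocyte marker that moved, fell in the same direction as Krt20, Lgals4 and Pkp3 (log2 fold change -0.96, limma adjusted p = 0.00203), and its part in these results was not tested.

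Of 15 other intermediate filament genes 6 were tested. The nuclear lamin genes Lmna (251 ± 15.1 to 310.1 ± 5.23 FPKM, SD, n = 3 each; log2 fold change 0.30, limma adjusted p = 0.00232) and Lmnb1 (45.8 ± 3.35 to 61.1 ± 0.745 FPKM, SD, n = 3 each; log2 fold change 0.41, limma adjusted p = 0.00105) were higher in M8. Lmnb2 was also called higher, with a log2 fold change of 0.15, but not under TPM or upper-quartile scaling. Nes, the gene of nestin, a filament protein that assembles with vimentin, was lower (log2 fold change -0.25, limma adjusted p = 0.0425), with overlapping groups and a call lost in 5 of the 17 alternative settings. The neurofilament gene Nefm was expressed at 52.2 ± 6.73 FPKM (SD, n = 3) in parental cells and was not called, except as higher without parental replicate 3 (adjusted p = 0.0675 in limma). Over the 11 lists beside the identity genes, 10 of 38 tested genes were higher and 8 were lower in M8, which is 26.3% and 21.1%, against 21.2% and 16.5% of all genes tested. The lower genes include Lgals4 and Pkp3, which passed the filter through their parental values.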

How the data were processed

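For each sample the authors deposited a table of FPKM values, made from stranded mRNA libraries sequenced in single reads and mapped to mm10. The submitters' processing notes name TopHat2 2.1.1, Bowtie2 2.2.8, SAMtools 0.1.18 and Cuffdiff 2.2.1. The gene annotation and the assignment of shared or antisense reads are not given in the sources used here. FPKM is not a count, so limma 3.58.1 (R 4.3.3, moderated with a trend on mean level) was fitted to log2(FPKM + 1) across all genes with a mean of at least 1 FPKM, without covariates.

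Depth was estimated from the FPKM steps of genes with 1 transcript, with an effective length 200 bases shorter than the transcript. Replicates of a line differed by more than sampling noise (chi-square per gene 2.92 to 10.4 in the 6 pairs). The members and the 11 lists were chosen with earlier results of these data known. Named genes are the 10 members and, per list, the 3 with the highest mean and the 3 called with the largest change, and further genes (Cdh1, Cdh2, Axl, Pdgfrb, Lmnb2, Ptprc and those listed at 0) were chosen after their values were seen. The values of 1 gene that this rule names are not reported here. Alternatives were pseudocounts of 0.1 and 0.5, no filter, a mean of at least 5 FPKM, 4 scalings, moderation without the trend, a threshold of 0.05, a replicate block, and leaving out single replicates. The fit was tested on simulated data. RefSeq promoters were searched in Python 3.11.15.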

Additional observations from a re-analysis of the deposited data

How the results depend on the processing

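The count of identity genes called higher in M8 was 0 in the main setting and 0 to 1 with a replicate left out, and the count called lower was 1 to 2. Under TPM and upper-quartile scaling 2 and 3 of them were lower. Over all genes tested, upper-quartile scaling gave 1157 higher and 3236 lower. With a replicate left out there were 1612 to 2102 higher and 1150 to 1678 lower genes, the lowest of each without M8 replicate 1. In the other lists together, the lower genes numbered 4 with a mean of at least 5 FPKM and 15 under upper-quartile scaling. Signs turned for Vim (-0.014 under upper-quartile scaling), for Twist1 (-0.041 under upper-quartile scaling and -0.0053 under quantile normalization), for Krt10 (0.037 under quantile normalization) and for Nefm (-0.0047 under TPM, -0.054 under upper-quartile scaling and -0.040 under quantile normalization). With a replicate left out, log2 fold changes ranged from -0.0044 to 0.28 for Krt18, from -0.025 to 0.12 for Twist1, from -0.12 to 0.021 for Krt10 and from -0.026 to 0.13 for Nefm. The cause was not tested, and the median of all genes moved by -0.079 to -0.00781 under these scalings. Same-numbered samples did not deviate together (correlations of 0.10, -0.11 and -0.033), so the numbers were not taken as pairs. With the replicate block 2171 genes were higher and 1688 lower, Krt20 stayed lower (limma adjusted p = 0.00940) and 1 identity gene was lower. Depth limits Krt8, which rests on at most 4 estimated reads per library, and Epcam and Krt19.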
